A study of Mus musculus with 4 samples.

Results

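Open chromatin at 10 genes of the Notch pathway was examined in mouse hair follicle stem cells: the receptor genes Notch1, Notch2, Notch3 and Notch4, the ligand genes Jag1, Jag2 and Dll1, the target genes Hes1 and Hey1, and Rbpj, which encodes the DNA-binding factor of the pathway. Accessible regions, or peaks, were taken when they shared at least 1 base with the RefSeq GRCm38 bounds of a gene extended by 50 kb on either side, and 91 of the 74777 peaks of the series lay in these windows. No peak fell in more than 1 window. The peaks come from ATAC-seq, in which the transposase Tn5 cuts and tags accessible DNA. Cells were sorted from back skin of female mice at postnatal day 30 as H2BGFP(+), Sca-1(-), CD34(+) and CD49f(+). The knockout has the genotype K14-H2BGFP, K14Cre, Foxc1 fl/fl, and the control K14-H2BGFP, Foxc1 fl/fl. Both thus carry floxed Foxc1 alleles and a histone-GFP reporter driven by the keratin 14 (K14) promoter. Only the knockout carries the Cre recombinase, driven by the same promoter in keratin 14 cells. Each genotype was 1 library sequenced in 2 runs, and whether a library came from 1 animal or a pool is not given.

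The values are 1 list of coordinates on mm10 for all 4 runs, and carry neither a read count nor a genotype. The genotypes could therefore not be compared, no test between samples was made, and depth is unknown, so closed chromatin and too few reads cannot be told apart where no peak was called. A region open in all cells and one open in some of them cannot be told apart either. The labelled cell type was checked at its defining markers. All 10 of the stem cell and basal markers Cd34, Itga6, Krt14, Krt5, Krt15, Sox9, Lhx2, Nfatc1, Tcf7l1 and Lgr5 had a peak within 1 kb of a gene end, and Ly6a, which encodes Sca-1, had none. For comparison, 57.6% of 21887 protein-coding genes had such an end peak. Among markers of other cells, an end peak was found at 2 of 5 endothelial genes (Kdr and Tek, not Pecam1, Cdh5 or Emcn), 1 of 5 fibroblast genes (Col1a1), 1 of 5 immune genes (Itgam), 3 of 5 melanocyte genes (Dct, Mlana and Pmel) and 2 of 5 suprabasal genes (Lor and Ivl). Of the 5 stem cell and basal markers with an annotated start, 4 had a peak there, all but Krt14, beside 55.0% of protein-coding genes. The same held for 2 of 3 endothelial, 1 of 4 suprabasal, 1 of 3 melanocyte, 0 of 3 fibroblast and 0 of 5 immune genes. The part of such cells in the peaks described here was not tested.

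Notch receptors are membrane proteins that are cut after binding a Jagged or Delta-like ligand on a neighbouring cell. The freed intracellular domain enters the nucleus, where it joins RBPJ and a Mastermind-like coactivator and turns on genes such as those of the HES and HEY repressors. In skin the pathway is best known for driving basal keratinocytes towards suprabasal fate and for keeping the hair follicle intact.

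Of the 8 member genes with a promoter sequence in the RefSeq table (build GRCm38.p6), 5 are shown here because they hold the contrasts that follow. Each line gives 300 bases, from 250 before to 50 after an annotated start, 5′ to 3′ along the gene. Notch1 and Jag2 have a peak in this window, Notch3 and Notch4 have none, and Rbpj holds the RBPJ core. Capitals mark GC boxes (GGGCGG, either strand) in Notch1, Notch3 and Jag2, the AP-1 match TGANTCA in Notch4, and the RBPJ core TGGGAA (either strand) in Rbpj.
Notch1, minus strand, chr2:26503773-26504072: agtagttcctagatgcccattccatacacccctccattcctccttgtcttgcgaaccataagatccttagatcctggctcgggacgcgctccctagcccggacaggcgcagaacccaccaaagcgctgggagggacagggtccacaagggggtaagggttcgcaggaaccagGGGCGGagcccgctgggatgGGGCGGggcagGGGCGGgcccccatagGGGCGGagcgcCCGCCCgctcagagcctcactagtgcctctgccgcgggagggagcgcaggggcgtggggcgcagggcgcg
Notch3, minus strand, chr17:32166841-32167140: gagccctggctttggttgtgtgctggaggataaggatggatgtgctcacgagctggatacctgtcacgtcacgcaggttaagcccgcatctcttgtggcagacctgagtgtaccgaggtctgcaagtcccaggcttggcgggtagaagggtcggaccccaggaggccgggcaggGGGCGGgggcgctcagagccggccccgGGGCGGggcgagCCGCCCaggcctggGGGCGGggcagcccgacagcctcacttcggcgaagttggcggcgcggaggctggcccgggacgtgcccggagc
Notch4, plus strand, chr17:34564045-34564344: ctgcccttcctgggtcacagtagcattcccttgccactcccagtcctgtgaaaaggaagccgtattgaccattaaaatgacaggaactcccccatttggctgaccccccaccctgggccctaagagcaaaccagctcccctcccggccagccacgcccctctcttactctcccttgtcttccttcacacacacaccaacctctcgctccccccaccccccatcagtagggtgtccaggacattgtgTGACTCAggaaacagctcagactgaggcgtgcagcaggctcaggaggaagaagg
Jag2, minus strand, chr12:112929446-112929745: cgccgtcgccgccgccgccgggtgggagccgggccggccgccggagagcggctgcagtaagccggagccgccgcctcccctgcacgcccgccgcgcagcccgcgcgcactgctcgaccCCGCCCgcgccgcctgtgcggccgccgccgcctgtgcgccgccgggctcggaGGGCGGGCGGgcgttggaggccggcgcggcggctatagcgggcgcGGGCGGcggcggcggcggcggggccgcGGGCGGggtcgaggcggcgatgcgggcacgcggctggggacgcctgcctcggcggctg
Rbpj, plus strand, chr5:53590096-53590395: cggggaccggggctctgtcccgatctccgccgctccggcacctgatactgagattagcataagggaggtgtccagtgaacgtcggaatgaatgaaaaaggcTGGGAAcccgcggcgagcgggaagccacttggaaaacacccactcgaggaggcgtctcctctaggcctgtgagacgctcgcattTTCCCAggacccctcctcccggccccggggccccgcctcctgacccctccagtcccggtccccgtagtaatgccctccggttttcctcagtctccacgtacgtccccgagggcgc

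With flanks of 50 kb, peaks were densest around the 3 ligand genes and Hes1, followed by the 4 receptor genes and then by Rbpj and Hey1. This order depended on the flank. With flanks of 100 kb, Dll1 stood at percentile 57.0 of protein-coding genes for peaks per 100 kb, against 88.2 with 50 kb, below Notch1 (65.5), Notch2 (67.9) and Notch3 (65.4). Counts ranged from 2 in the window of Hey1 to 16 in that of Jag2. Per 100 kb of window, Jag2 had 13.1 peaks, Hes1 9.76, Jag1 9.62 and Dll1 8.21. The receptors followed with 6.85 for Notch3, 5.48 for Notch1, 5.07 for Notch2 and 4.83 for Notch4, and Rbpj had 2.48 and Hey1 1.93. The median over the 10 genes was 6.16 peaks per 100 kb, beside 3.79 (quartiles 1.85 and 6.12) over all 21887 protein-coding genes with windows of the same kind. With only peaks at least as wide as the list's median, the median of the 10 genes was 4.07, beside 2.10 for all protein-coding genes. The share of window bases inside peaks gave a similar order, from 11.5% at Jag2 and 11.3% at Jag1 to 2.24% at Rbpj. Its median was 6.28% for the 10 genes and 3.16% (quartiles 1.20 and 5.68) for all protein-coding genes, and 9 of the 10 genes lay above the latter. With flanks of 100 kb both medians came nearer to those of all protein-coding genes. Density was then 4.88 beside 3.81, and the covered share 4.63% beside 3.17%. With flanks of 20 kb they were 6.3 beside 3.87 and 7.85% beside 3.17%. These are descriptions of 1 list with no replicate, so neighbours in the order cannot be said to differ.

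**Figure D1:**
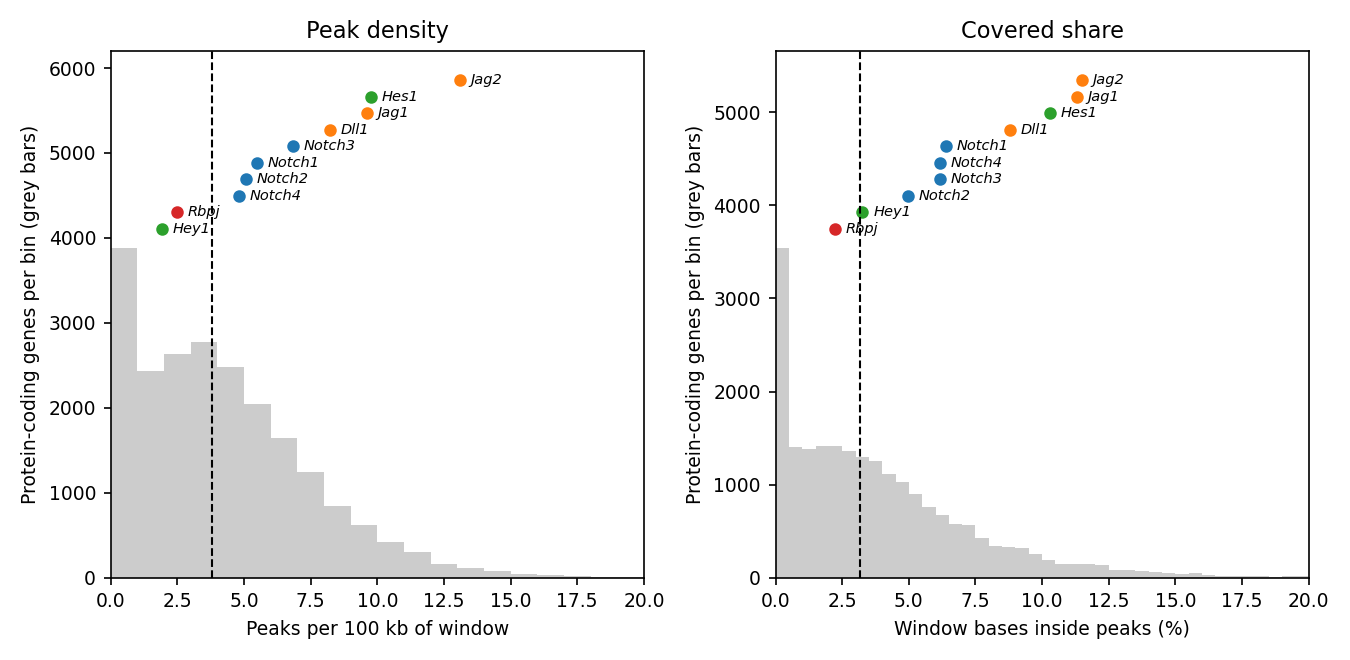
Peaks per 100 kb of window (left) and percent of window bases inside peaks (right), with grey bars for the number of protein-coding genes per bin, a dashed line at their median, and 1 point per Notch pathway gene (blue receptors, orange ligands, green targets, red Rbpj), whose height has no meaning. The axis stops at 20, which leaves out 67 genes on the left and 144 on the right, and with these flanks of 50 kb the ligand genes and Hes1 lie farthest to the right.

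The windows differ in what else they hold. That of Notch4 contains bases of 9 other protein-coding genes and 17 of their ends, and that of Hes1 contains no other protein-coding gene. Of the 91 peaks, 33 touched a member gene itself and 58 lay outside. By midpoint, the nearest end of a protein-coding gene was that of the member for 58 peaks, or 63.7%. This held for 10 of 10 peaks at Hes1 and 12 of 12 at Notch2, but for 7 of 13 at Jag1, 3 of 16 at Jag2 and 1 of 6 at Notch4.

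**Figure D2:**
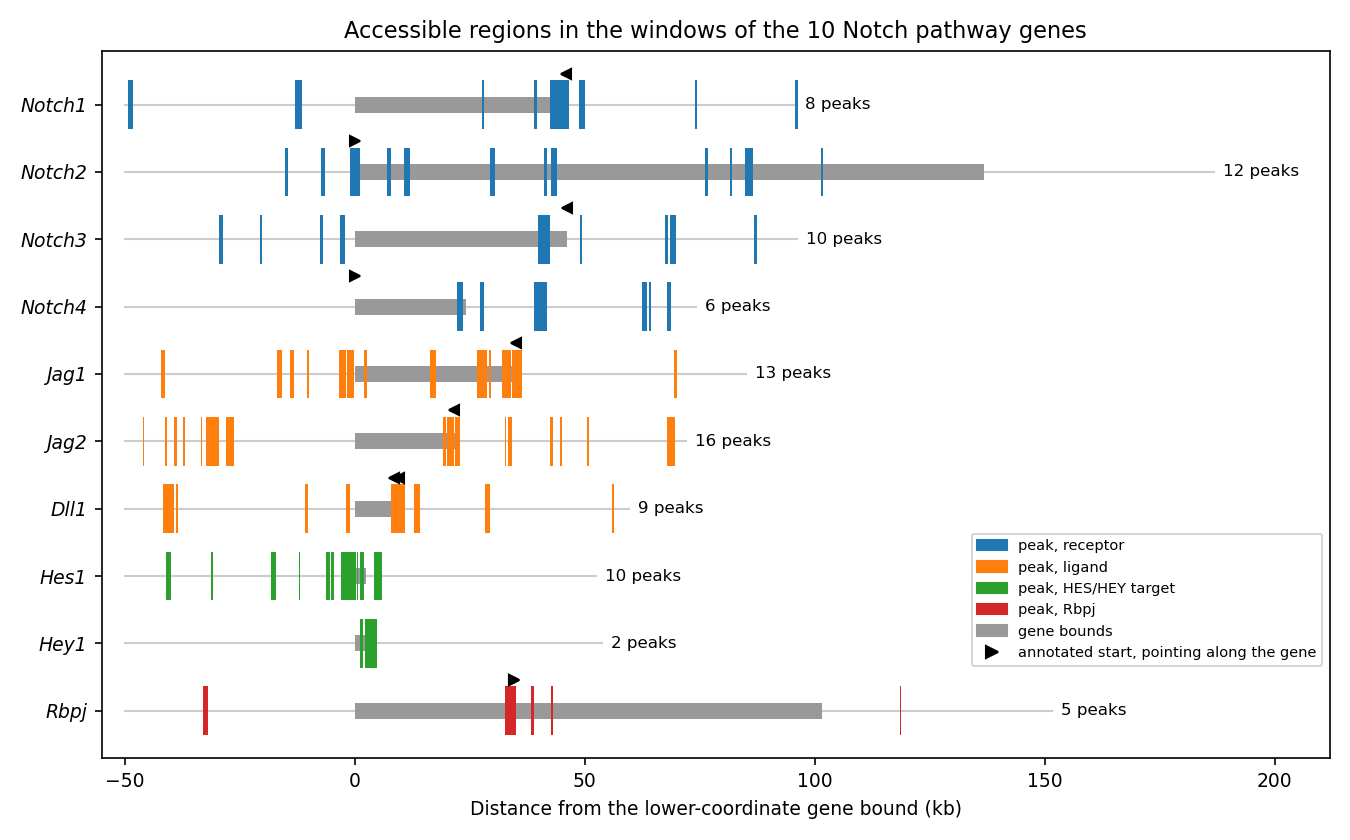
Position of every peak (coloured bars, to scale except that the narrowest are widened to stay visible) in the 10 windows, as distance in kb from the lower-coordinate bound of the gene (grey bar); arrowheads mark annotated starts and point along the gene, and Hes1 and Hey1 carry none. Peaks sit over the starts of Notch1, Notch2, Jag1, Dll1 and Rbpj and on both sides of that of Jag2, while Notch3 and Notch4 have none at the start.

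Among the receptor genes, Notch1 and Notch2 had a peak at their starts, and none was called at those of Notch3 and Notch4. Notch1, the main receptor of epidermal differentiation, lies on the minus strand of chromosome 2 from 26457902 to 26503822. Its start lay inside a peak of 4149 bp, from 26500298 to 26504446, the widest of the 91 and at percentile 99.7 of all peak widths. This peak also reached the end of Gm35978, a long non-coding RNA gene next to the Notch1 start. Another 2 peaks, of 697 and 263 bp, lay further into the gene, and peaks of 1238, 234 and 729 bp lay 2932, 28153 and 49840 bp upstream. No peak was called over the next 39.1 kb towards and past the 3′ end, from 26446424 to 26485552. The 2 peaks beyond it, of 1513 and 1083 bp, lay at ends of the neighbouring genes Sec16a and Inpp5e.

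Notch2 spans 137 kb on the plus strand of chromosome 3, from 98013538 to 98150367, and had more peaks inside it than any other of the 10 genes. Its start lay in a peak of 2065 bp, from 98012609 to 98014673. A total of 10 of its 12 peaks touched the gene, and the other 2 lay 6472 and 14598 bp upstream. The next widest inside was 1769 bp long, from 98098368 to 98100136. The last intragenic peak ended at 98115455, and from there to the end of the window, 84.9 kb, no peak was called, at the Notch2 3′ end and at the neighbour Adam30 alike. The peaks inside Notch2 include 2, of 976 and 1283 bp, at the ends of the long non-coding RNA gene Gm40103.

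Notch3, known from vascular smooth muscle and suprabasal epidermis, lies on the minus strand of chromosome 17 from 32120820 to 32166896. It had no peak within 1 kb of either end. Its annotated start was 2860 bp from the nearest peak, one of 575 bp upstream, and the only peak touching the gene was 2694 bp long, from 32160567 to 32163260, downstream of the start. Of the protein-coding genes with an annotated start, 38.2% were at least as far from a peak. A further 5 peaks lay past the 3′ end, the nearest of them 2167 bp away and separated from the next by a gap of 14 bp. Another 2, of 577 and 1466 bp, lay at the ends of the upstream neighbour Ephx3. With an end window of 2500 bp Notch3 counted as having an end peak, at the 3′ end.

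Notch4, best known from endothelium, lies on the plus strand of the same chromosome from 34564286 to 34588543. From the lower edge of its window to 34586467, which takes in 50 kb of upstream ground, the start and most of the gene, no peak was called over 72.2 kb. The only peak touching it, 1463 bp long from 34586468 to 34587930, lay at its 3′ end, 22173 bp from the start. A start at least as far from any peak was found for 20.3% of protein-coding genes. The other 5 peaks lay past the 3′ end, among Gpsm3, Pbx2, Ager, Rnf5, Agpat1, Egfl8, Ppt2 and Prrt1. The widest of them, 2810 bp, lay at the ends of Rnf5 and Agpat1. With end windows of 500 bp Notch4 had no end peak. Of the endothelial markers, 2 of 5 had an end peak, as given above.

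The 3 ligand genes all had a peak at the start and further peaks close by. Jag1, the gene of a Jagged ligand, lies on the minus strand of chromosome 2 from 137081451 to 137116520, and 6 of its 13 peaks touched the gene. The start lay inside a peak of 2231 bp from 137115666 to 137117896. Downstream of it came peaks of 1958, 465, 2268, 1263 and 743 bp inside the gene. That of 2268 bp, from 137107977 to 137110244, had its midpoint 7410 bp downstream of the start. A pair of 1494 and 1538 bp lay 152 and 1910 bp past the 3′ end, where the end of Slx4ip adjoins that of Jag1, so these peaks cannot be given to either gene from position. Another 4 peaks, of 218 to 977 bp, lay further along that side, and an end of Slx4ip was the nearest protein-coding gene end to each. Upstream of the start the next peak was 34368 bp away and 538 bp wide.

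Jag2 lies on the minus strand of chromosome 12 from 112907803 to 112929812. Its annotated start fell between 2 peaks, one of 1004 bp upstream (112929615 to 112930618) and one of 1567 bp downstream (112927803 to 112929369), 120 bp from the nearer. The promoter sequence printed above is 86.0% G and C, at percentile 99.9 of 21263 promoter windows, and 131 of its 300 bases lay inside a peak. The part of base composition in this gap was not tested. Another peak of 800 bp lay at 112926917 to 112927716, and no peak was called over the remaining body of the gene and beyond, 45.3 kb in all. The other 13 peaks were outside the gene. They include 7 on the side of Gpr132, where the widest of the window, 2943 bp, lay at an end of the non-coding gene 1700127F24Rik, and 6 on the side of Nudt14, Brf1 and Btbd6. Of the 3 peaks in all windows with the smallest width in the list, 200 bp, Jag2 had 2. With flanks of 20 kb in place of 50 kb, Jag2 kept 5 of its 16 peaks and stood at percentile 81.7 of protein-coding genes for peaks per 100 kb, against 98.3.

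Dll1, a Delta-like ligand gene of 9.58 kb on the minus strand of chromosome 17 (15367354 to 15376932), has 2 annotated starts. Both lay in the same peak of 2146 bp, from 15375247 to 15377392. Upstream of the gene, a peak of 789 bp followed at 585 bp and 1 of 1362 bp at 3224 bp. At the 3′ side a peak of 826 bp lay 967 bp from the gene end. The widest peak of the window, 2349 bp from 15325644 to 15327992, lay 39362 bp past the 3′ end, and Dll1 had the nearest end of a protein-coding gene to it. The neighbour Fam120b had the peak of 982 bp at its end.

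The target genes Hes1 and Hey1 were covered by peaks over 64.0% and 57.8% of their own short length, and differed in their surroundings. Hes1 encodes a basic helix-loop-helix repressor and spans 2.44 kb of chromosome 16, from 30065357 to 30067796. Its lower-coordinate end lay in a peak of 3253 bp, from 30062457 to 30065709, followed inside the gene by peaks of 277 and 932 bp. Beyond the upper-coordinate end a peak of 1655 bp lay 1752 bp away, at the non-coding gene Gm32998. Below the gene were 6 more peaks, at 4527, 5387, 11794, 17171, 30861 and 40041 bp from its lower-coordinate end, with widths from 386 to 1057 bp. All 10 peaks were nearer to an end of Hes1 than to that of any other protein-coding gene.

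Hey1, which encodes a related repressor, spans 3.68 kb of chromosome 3 from 8663359 to 8667038. It had 2 peaks, both touching the gene. That of 2601 bp, from 8665690 to 8668290, covered the upper-coordinate end, where a bound of the provisional gene LOC115489673 lies too, and that of 779 bp lay inside from 8664432 to 8665210. No further peak was called in the 50 kb on either side. Its density stood at percentile 26.7 of protein-coding genes and its covered share at percentile 51.2. With flanks of 20 kb the same 2 peaks put its density at percentile 58.0, near Notch4 at 59.2, and with 100 kb its 7 peaks put it at 44.7.

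Rbpj spans 102 kb on the plus strand of chromosome 5, from 53555779 to 53657445, and had no peak at either outer bound. Its 2 annotated starts lie inside these bounds, and both were covered by a peak of 2385 bp, from 53588459 to 53590843, which begins 32680 bp inside the lower-coordinate bound. Peaks of 542 and 291 bp followed further into the gene, at 53594162 and 53598456. The remaining 2 lay 31980 bp below and 16807 bp above the gene, and from 53598747 to 53674251, 75.5 kb, no peak was called. Rbpj thus counts as lacking an end peak but has a start peak. With flanks of 100 kb it had 13 peaks and stood at percentile 57.1 for density, against 32.7.

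By gene bounds, 8 of the 10 genes had an end peak, all but Notch3 and Rbpj, beside 57.6% of protein-coding genes. Peaks at both ends were found at 3 genes, Jag1, Dll1 and Hes1, beside 8.14%. At Dll1 the 3′ peak lay 967 bp from the gene end, outside an end window of 500 bp. At Jag1 the 3′ peak lay 152 bp past the gene and also at an end of Slx4ip. Hes1 is 2.44 kb long, so end windows reaching 1 kb either side of its bounds take in most of the gene. The 8.14% is over genes of all lengths. The count for both ends was not recomputed with other end windows. By annotated starts, 6 of the 8 genes with an entry had a peak sharing at least 1 base with the promoter window, all but Notch3 and Notch4. The same held for 55.0% of 17492 protein-coding genes with an entry. When the whole window had to lie inside 1 peak, Jag2 was lost as well. With 10 genes, and 8 for starts, these shares are a description, and nothing particular to the pathway is drawn from them.

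Widths were the only property of a peak that the list holds. The median over the 91 peaks was 828 bp (quartiles 500 and 1412.5), beside 587 bp (341 and 1025) over the list. The 6 peaks at promoter windows had a median of 2188.5 bp, beside 1328 bp for the 9150 peaks of the list at promoter windows of protein-coding genes. The other peaks in the windows had a median of 800 bp, beside 523 bp for list peaks at no promoter window of a protein-coding gene. These values are not alike, since only the promoter windows of the member genes were used for the 800 bp. Peaks at neighbouring genes thus stayed in, as did those at the ends of Hes1 and Hey1, which have no promoter sequence here. Peaks of 2000 bp or more numbered 12, or 13.2% beside 4.94% of the list. Each of the 10 windows held at least 1 of them, as did 28.2% of the windows of all protein-coding genes, which were not matched for length. The width of 2000 bp was chosen after the values had been seen. In 5 genes, Notch1, Notch2, Hes1, Hey1 and Rbpj, the widest peak lay at a gene end or annotated start. In Notch3, Notch4, Jag1, Jag2 and Dll1 it lay elsewhere, as described above. Neighbouring peaks were separated by less than 500 bp in 14 of 81 pairs, 17.3% beside 8.19% over the list. These shares are not alike, since the 81 pairs leave out gaps that cross a window edge. Joining the peaks of the 14 pairs left 77 of the 91.

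**Figure D3:**
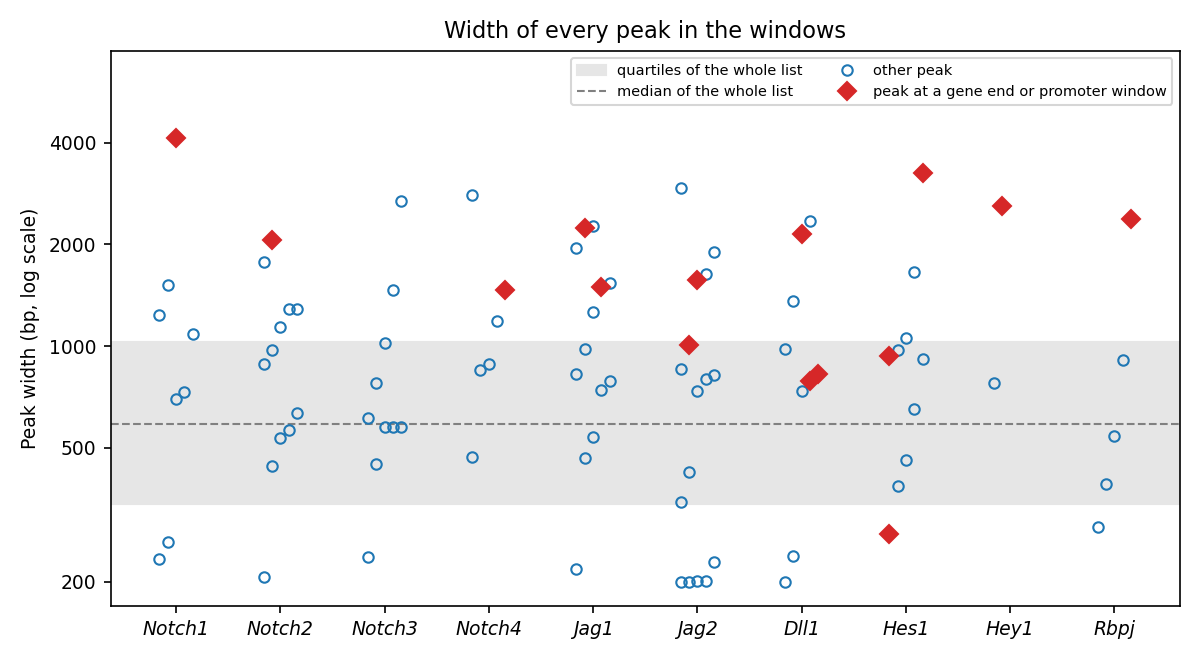
Width in bp (log scale) of each of the 91 peaks by gene, with red diamonds for peaks within 1 kb of a gene end or at a promoter window and open circles for the others. The grey band spans the quartiles of the whole list, and the 15 diamonds have a median of 1567 bp against 779 bp for the 76 circles.

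The promoter sequences were compared with all 21263 promoter windows of protein-coding genes. Among all of them, 84.2% of windows with a CpG ratio (observed over expected) of at least 0.6 had a peak, against 24.9% of those under 0.6. Of the 10 windows of the member genes, 9 had a ratio of at least 0.6 and 8 of these had a peak. The exception was Notch3, with a ratio of 0.71, 70.0% G and C and 4 GC boxes in the sequence printed above. Notch1, which had a peak, was close to it in composition, with 0.66, 68.3% and 5 GC boxes. Notch4 had the lowest ratio, 0.21, with 58.3% G and C and no GC box. The GC box GGGCGG, the core bound by SP factors, was found in 5 of the 10 member windows, beside 46.2% of all windows. These were 1 window each of Notch1, Notch2, Notch3, Jag2 and Rbpj. Among all windows with a peak, 67.4% held it.

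**Figure D4:**
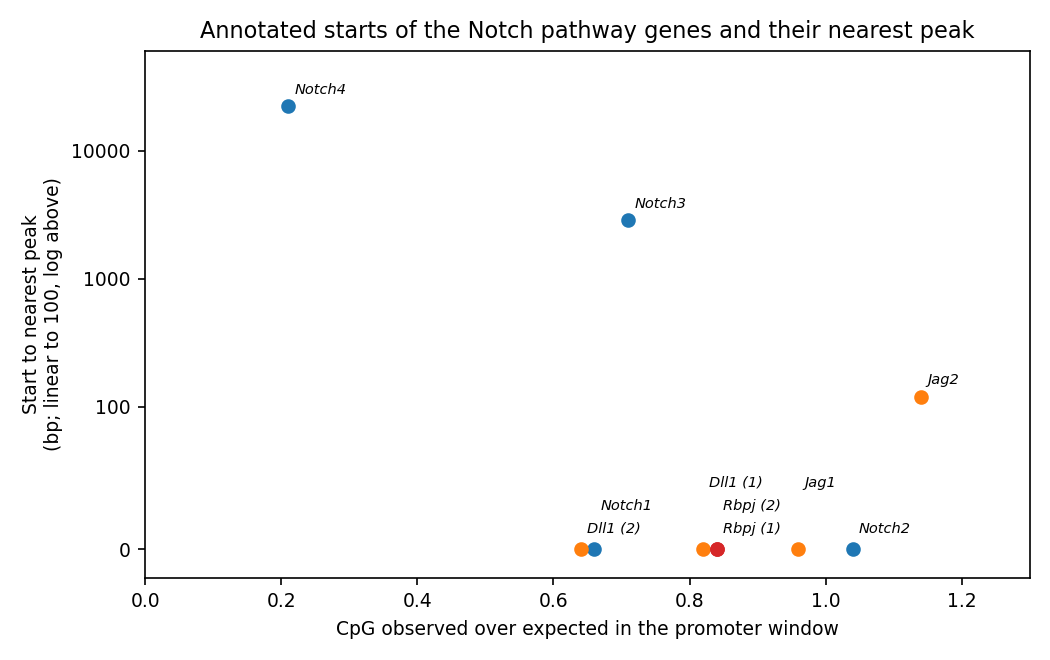
Distance in bp from each of the 10 annotated starts to the nearest peak (linear to 100 bp, log above; 0 means inside a peak) against the CpG ratio of the promoter window, with numbers in brackets where a gene has 2 starts. Notch4 and Notch3 stand apart at 22173 and 2860 bp, Jag2 lies at 120 bp and the other 7 starts at 0.

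Hes1 and Hey1, the target genes, have no promoter sequence here, so motifs were searched in the other 8 genes only. The RBPJ core TGGGAA was found in 2 of the 10 member windows, both of them of Rbpj itself, beside 24.5% of all windows. It lay there at 149 and, on the opposite strand, 65 bases before the first start, both inside the peak of 2385 bp. The 2 windows of Rbpj overlap, and the only match in the second is this site at 65 bases, counted again. The longer form GTGGGAA, present in 6.07% of windows, was in none (0) of the 8. The forkhead core TGTTTAC, of the family of the deleted factor, was in none either, beside 3.01% of all windows. The E box CACGTG (7.84% of windows) and TATAAA (12.6%) were absent as well. The N box CACNAG, a site form of HES repressors, was in 4 of the 10 member windows, beside 41.9% of all windows. These were 1 window each of Notch1, Notch2, Notch3 and Dll1. The AP-1-like form TGANTCA, with any base at N, was in 2 of the 10 member windows, 1 each of Notch4 and Dll1, beside 6.99% of all windows. It read TGACTCA in Notch4 and TGATTCA in Dll1, and a stricter form was not counted. CCAAT was in 1, of Dll1, beside 38.2%. All motifs were searched on both strands, TGGGAA is contained in GTGGGAA, and a match in these letters is no evidence of binding.

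Other components of the pathway, in a list of 66 genes, mostly had a peak at a gene end. An end peak was found at 52 of them, or 78.8%, beside 57.6% of protein-coding genes. A start peak was found at 37 of 54 with an entry, or 68.5%, beside 55.0%. Their medians were 4.72 peaks per 100 kb and 4.81% of bases covered, beside 3.79 and 3.16% over all protein-coding genes. All 12 corepressor genes had an end peak, among them Spen, Ncor1 and the Groucho-type genes Tle1 to Tle4. So did the genes of the receptor-cleaving proteases Adam10 and Adam17 and of furin. Of the 7 genes of the gamma-secretase complex, 6 had one, the exception being Aph1b, which had a start peak. Aph1b and Aph1c are close copies whose reads the mapping may not separate. Of the 8 coactivator genes 7 had an end peak, including Maml1, Maml2 and Maml3 but not Kat2a. Of 14 genes for receptor and ligand turnover 11 had one, including Numb, Itch and Mib1 but not Neurl1b, Neurl3 and Dtx1.

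End peaks were missing at 3 of 5 other ligand and ligand-like genes. These were Dll4, Dlk1 and Dner, and Dll3 and Dlk2 had one. Among the fringe and other glycosylation genes, Lfng, Pofut1 and Poglut1 had an end peak and Mfng and Rfng did not. Of 8 other genes of the HES, HEY and NRARP group, 6 had one, and Hes3 and Hes5 did not. Nrarp, a feedback inhibitor of the pathway, had 13 peaks in its window at 12.7 per 100 kb, and Hey2 had 3 peaks at 2.72. The remaining genes without an end peak were Rbpjl and Dvl2. Maml2 had the most peaks of the list, 33 in a window of 513 kb, followed by Maml3 with 18, Kat2b with 17, Tle4 with 16 and Rbpjl with 14. The window of Rbpjl was covered by peaks over 24.4% of its bases although the gene itself had neither an end nor a start peak.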

How the data were processed

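The authors deposited 1 peak list of accessible regions for all 4 runs, with region coordinates in base pairs as its only other values and no score, count or signal. The submitters' processing notes name mm10 as the build and Bowtie2, MACS2 and bedtools as tools. Not given in the sources used here are their versions and settings, any Tn5 offset, the depth, and whether reads were pooled before calling. The genotype label set each run's group, and a resequenced run counted as its own library's repeat. Starts were converted to 1-based positions. The list has 0 unused per-sample columns. Gene bounds and promoter windows came from RefSeq tables of GRCm38.p6, which shares its primary coordinates with mm10. Hes1 and Hey1 were matched for bounds, not for promoter sequence.

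An end peak shared at least 1 base with the 1000 bp either side of a gene bound, and a start peak with a promoter window. Percentiles are over all 21887 protein-coding genes outside the mitochondrial chromosome, with ties at their middle. Counting was checked on simulated data by brute force (Python 3.11.15, pandas 2.3.3). The members and lists were chosen with earlier results of these data known. The named genes were all 10 members, up to 20 list genes without an end peak and the 5 list genes with the most peaks. Promoters by rule were those with a peak and an RBPJ core; the other printed promoters were chosen after the values were seen. Alternatives changed flanks, end windows, overlap rule and minimum width.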

Additional observations from a re-analysis of the deposited data

How the results depend on the processing

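The counts and medians were recomputed with other settings, and 31 of 34 stayed within 1.5 times the reported value. The exceptions were the number of peaks in the windows, 137 in place of 91 with flanks of 100 kb, the median density, 4.07 in place of 6.16 peaks per 100 kb with only peaks of at least the median width, and the RBPJ motif, found at 0 genes in place of 1 in its longer form. The density of all protein-coding genes under that width limit was 2.10 in place of 3.79, as fewer peaks entered. The limit of 1.5 times was set on the values themselves, not on their distance from all protein-coding genes. For median density and covered share that distance shrank with flanks of 100 kb, to 4.88 beside 3.81 and 4.63% beside 3.17%. Joining peaks across gaps under 500 bp was chosen after seeing the data. For single genes, 48 of 60 counts stayed within 1.5 times. No paired analysis was possible because the list holds no value per sample. Depth is unknown, so a missing peak sets no limit on accessibility.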
